A study of Arabidopsis thaliana with 12 samples.

Results

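The transcripts described here are those whose level in leaves was lower after 30 min of heat in both 35S:HSFA1b and WT plants of Arabidopsis thaliana. Members were chosen by their FPKM values, a measure of transcript level that is scaled by transcript length and by the size of the library. A transcript was taken when its mean was at least 5 FPKM under non-stress (NS) conditions in each genotype, and when in each genotype its highest heat-stress (HS) column was below its lowest NS column by more than 2-fold. Of 33557 loci in the table, 12383 reached the NS level in both genotypes, and 119 of these met the rule. That is 0.961% of the genes at the NS level. The rule was met in 35S:HSFA1b by 416 genes (3.36%) and in WT by 187 genes (1.51%), both counts including the 119, so that the 119 members were 28.61% of the genes lost in 35S:HSFA1b and 63.64% of those lost in WT. Because the HS and NS values chose the members, the heat differences below are a description and carry no test.

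The study asked how the heat shock transcription factor HSFA1b acts under NS and HS conditions. RNA-seq was made from leaves of Col-0 plants aged 5 weeks, in 4 groups of 3 libraries: 35S:HSFA1b plants at 37 °C for 30 min (HS), 35S:HSFA1b plants at 23 °C (NS), WT plants at 37 °C for 30 min (HS) and WT plants at 23 °C (NS). The 35S:HSFA1b plants are a single Col-0 line in which the constitutive 35S promoter drives a fusion of HSFA1b with red fluorescent protein (RFP). The transcript of the factor was therefore at levels that its own promoter did not give in WT leaves. HSFA1b itself (AT5G16820, named HSF3 in RefSeq) was at 330 to 364 FPKM in 35S:HSFA1b HS and 430 to 624 FPKM in 35S:HSFA1b NS columns, against 3.10 to 7.31 FPKM in the 6 WT columns, which fits the sample titles and column names that gave the groups. The genotype entry of the labels reads wild type for every library, and the 6 columns named 35S go against it. Leaf genes such as RBCS1A were abundant in every column (3057 to 21754 FPKM), whereas the root hair gene EXPA18 was listed at 0 throughout and the flower genes AG, PI and AP3 did not exceed 0.457 FPKM.

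Plants exposed to heat make heat shock proteins within minutes, and the clade A1 heat shock factors start that response. At the same time many messages of growth, secondary metabolism and the cell wall become scarcer. How fast a transcript level can go down depends on both its synthesis and the lifetime of its RNA, which RNA-seq does not separate. In bulk leaf RNA, fewer cells that express a gene and less RNA per cell cannot be told apart.

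The sequence of the microRNA among the members is given first, because its precursor was the only microRNA gene among the members. MIR163 (AT1G66725, chr1:24884066-24884396, plus strand of TAIR10.1) encodes miR163, a microRNA of 24 bases from chr1:24884359-24884382 that is known to guide cleavage of transcripts of SABATH methyltransferases, enzymes that methylate small carboxylic acids. The mature sequence is taken from the RefSeq annotation of TAIR10.1 with bases 2 to 8, the seed, in capitals.
miR163: tTGAAGAGgacttggaacttcgat
The best ungapped match to this sequence was searched in the annotated transcripts of 5 methyltransferases of the family. In the sites below, which are shown because miR163 acts through them, capitals mark bases equal to the reverse complement of miR163 and lower case marks those that are not.
PXMT1 (AT1G66700, chromosome 1): catcgAGTTCCAAGTCCTCTTCAA
FAMT (AT3G44860, chromosome 3): AatcgAGTTCCAAGTttTCTTCAA
PXMT1 matched at 19 of 24 bases and FAMT at 18 of 24.
The seed is matched at the 3′ end of each site, wholly in PXMT1 and with 1 base that differs in FAMT. Without gaps, both sites also differ from the complement near their 5′ end. The lower-case bases atcg there are the start of the complement shifted by 1 base. An alignment with a gap, which was not made, would match more bases.

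The MIR163 precursor was at 9.70, 9.14 and 7.18 FPKM in 35S:HSFA1b HS columns, against 47.9, 49.1 and 47.7 FPKM in 35S:HSFA1b NS columns. The WT columns were at 6.92, 12.5 and 12 FPKM under HS, against 43.9, 25.4 and 27.3 FPKM under NS. The NS columns of 35S:HSFA1b were therefore all above those of WT, while the HS columns overlapped between genotypes. The difference between genotypes under NS was 0.63 on the log2 scale (SE 0.25, limma adjusted p = 0.11) and did not pass the threshold. These are fragments of the 331-base precursor, so they do not measure the mature microRNA. Among the targets, FAMT was the only one of the 5 that reached 5 FPKM under NS in both genotypes. It was at 219, 90.5 and 115 FPKM in 35S:HSFA1b HS and 132, 214 and 177 FPKM in 35S:HSFA1b NS columns. For WT the values were 138, 211 and 230 FPKM under HS and 189, 68.9 and 96.3 FPKM under NS. The HS and NS columns of FAMT overlapped in both genotypes, so no direction can be read from it.

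How far the members went down varied widely among them. The HS mean was a median of 28.55% of the NS mean in 35S:HSFA1b (5.21% to 44.35%) and 29.9% in WT (9.229% to 44%). On the log2(FPKM + 0.01) scale the median difference of HS from NS was -1.83 in 35S:HSFA1b and -1.76 in WT, whereas over all 12383 genes at the NS level it was 0.05 and 0.04. The HS mean was below 20% of the NS mean for 22 members in 35S:HSFA1b and 13 in WT. No member had an HS column at 0 in either genotype. Members with the larger difference in 35S:HSFA1b numbered 60 and those with the larger difference in WT 59. Across the members the log2 differences of the 2 genotypes had a Pearson's r of 0.4937, a description over genes that share the same 12 columns.

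**Figure D1:**
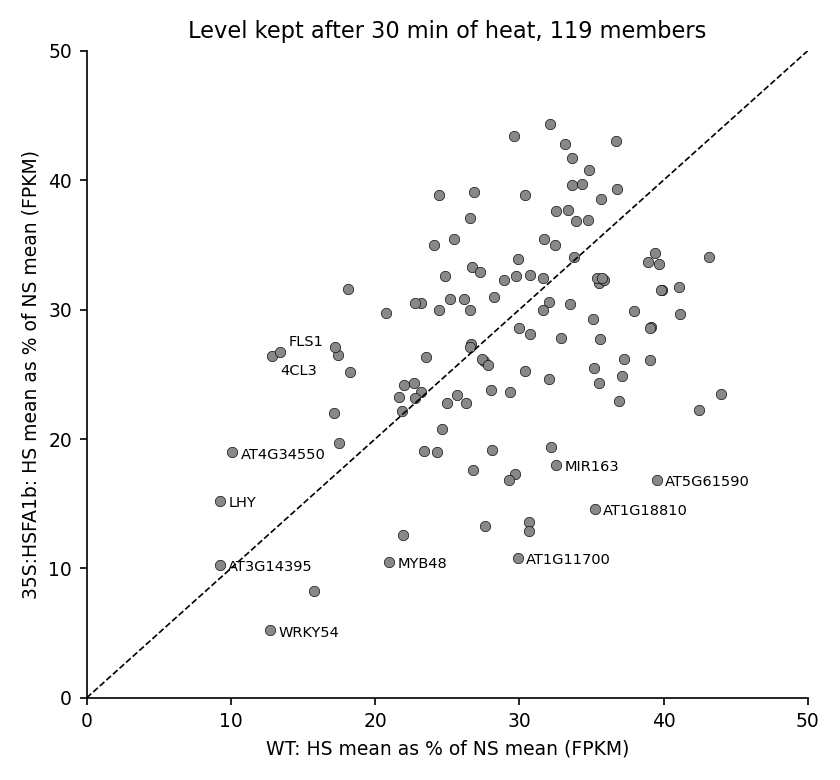
HS mean as a percentage of NS mean in 35S:HSFA1b (vertical axis) against WT (horizontal axis), each point being a member and the dashed line marking equal percentages. The points spread around the line on both sides; WRKY54 is at 5.21% in 35S:HSFA1b and AT3G14395 at 9.229% in WT, the lowest value of each axis.

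At the edge of the rule the values ran on without a gap. Just inside the limit, ARAB-1, UGT88A1 and AT4G35320 had a lowest NS column 2.001, 2.003 and 2.005 times the highest HS column in the genotype where the gap was smaller. Just outside it, NIA1, TBL28 and AT3G61750 had ratios of 1.999, 1.996 and 1.987. NIA1 and its paralogue NIA2, the nitrate reductases that carry out the first step of nitrate assimilation, thus lie on either side of the limit. NIA2 was at 113, 129 and 121 FPKM in 35S:HSFA1b HS and 355, 385 and 485 FPKM in 35S:HSFA1b NS columns. WT plants had 169, 157 and 156 FPKM under HS and 391, 380 and 402 FPKM under NS. NIA2 had the highest mean over the 6 NS columns of all members, and its HS columns were lower in 35S:HSFA1b than in WT without overlap.

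Of the pathway lists, the phenylpropanoid and flavonol pathway held the most members. In this pathway, phenylalanine is deaminated to cinnamic acid and activated as a CoA ester, chalcone is formed and closed to a flavanone, and oxidation and glycosylation give the flavonol glycosides that screen leaves from ultraviolet light. Of 18 genes of the pathway at the NS level, 11 were members (61.11%), beside 0.961% of all genes at that level. The list was drawn up after the values of the members were known, so the share describes the list and supports nothing. Over all 18 genes the median log2 difference of HS from NS was -1.82 in 35S:HSFA1b and -1.58 in WT.

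At the entry to the pathway, PAL1, a phenylalanine ammonia-lyase, was at 25.8, 27.4 and 25.8 FPKM in 35S:HSFA1b HS, against 91.6, 109 and 112 FPKM in 35S:HSFA1b NS columns. In WT it was at 26.5, 26.8 and 20.9 FPKM under HS, against 107, 145 and 155 FPKM under NS. Its HS columns lay close together in both genotypes and the WT NS columns were the most spread. PAL2, the second such enzyme, kept 30% of its NS mean in 35S:HSFA1b and 26.6% in WT, and the coenzyme A ligase 4CL1 kept 35% and 32.5%. The ligase 4CL3, which serves the flavonoid branch, was at 4.78, 5.67 and 5.09 FPKM in 35S:HSFA1b HS, against 17.1, 21.0 and 20.8 FPKM in 35S:HSFA1b NS columns. The WT columns were at 5.87, 5.00 and 3.65 FPKM under HS, against 27.5, 38.2 and 47.5 FPKM under NS. The HS columns of the genotypes overlapped, whereas every 35S:HSFA1b NS column was below every WT NS column.

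Further along, TT5 (chalcone isomerase) and CHIL (a chalcone isomerase-like protein that aids chalcone formation) were also members, as was F3H (flavanone 3-hydroxylase). F3H was at 20.4, 29.1 and 20.8 FPKM in 35S:HSFA1b HS and 79.8, 120 and 119 FPKM in 35S:HSFA1b NS columns. For WT the values were 26.6, 25.1 and 20.2 FPKM under HS and 108, 133 and 179 FPKM under NS. The flavonol synthase FLS1 was at 11.5, 13.4 and 11.9 FPKM in 35S:HSFA1b HS and 44.7, 45.1 and 47.8 FPKM in 35S:HSFA1b NS columns. WT plants had 11.8, 13.7 and 9.90 FPKM under HS and 67.7, 87.3 and 109 FPKM under NS. Both genotypes thus had like FLS1 levels after heat, although WT started from higher ones. The glycosylation steps of flavonols were represented by UGT78D2, a flavonoid 3-O-glucosyltransferase, and by AT1G06000. The latter is annotated as a UDP-glycosyltransferase superfamily protein and is known as a flavonol-7-O-rhamnosyltransferase. The list also held UGT84A2, a sinapate glucosyltransferase, as a member. UGT78D2, AT1G06000 and UGT84A2 kept 26% to 39.7% of the NS mean in 35S:HSFA1b and 27.5% to 35.4% in WT.

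**Figure D2:**
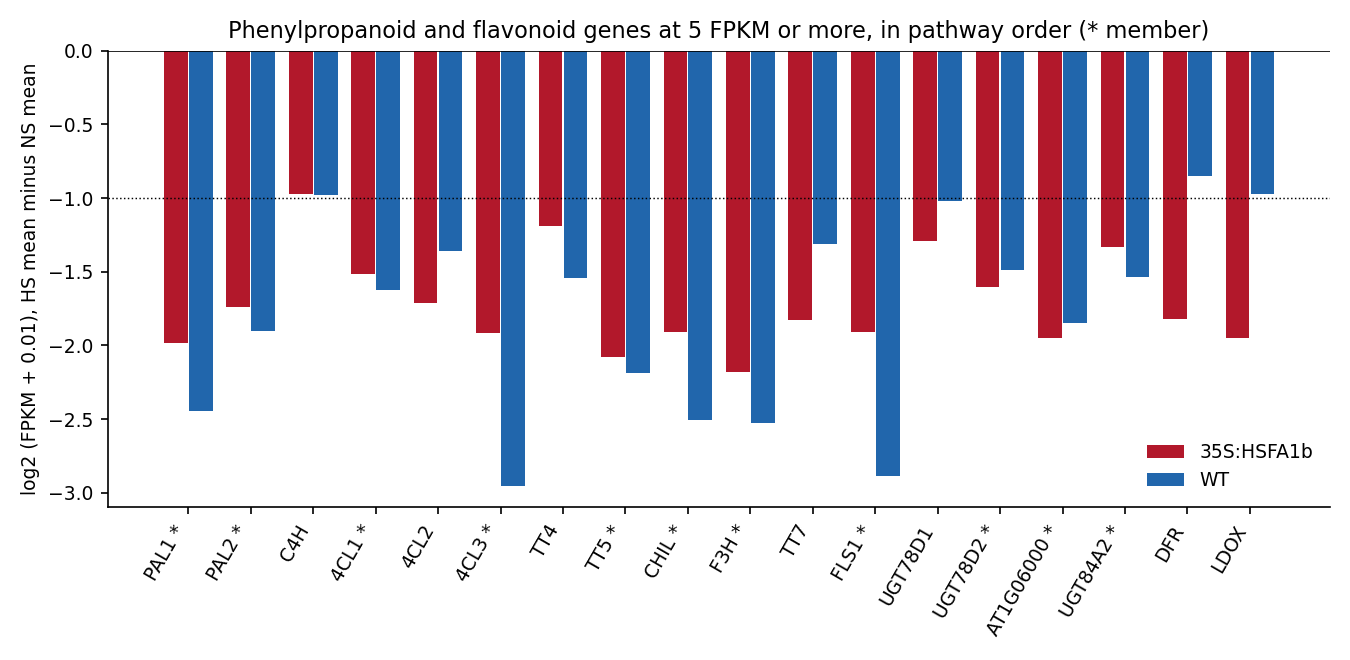
Difference of the HS from the NS mean on the log2(FPKM + 0.01) scale (vertical axis) for 18 phenylpropanoid and flavonoid genes in pathway order, with 35S:HSFA1b left of WT for each gene and asterisks on the 11 members. All bars are below 0; the members include 4CL3 at -1.91 in 35S:HSFA1b and -2.95 in WT, and C4H is near the dotted line of a 2-fold difference, at -0.97 in 35S:HSFA1b and -0.98 in WT.

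The genes of the pathway that were not members show where it was left out. Cinnamate 4-hydroxylase C4H kept 50.8% of its NS mean in 35S:HSFA1b and 50.7% in WT. Chalcone synthase TT4 met the rule in WT only, with 34.2% kept, since its lowest NS column was 1.495 times its highest HS column in 35S:HSFA1b. DFR and LDOX, the enzymes that lead on to anthocyanins, had overlapping HS and NS columns in WT. Of the MYB factors known to activate flavonol genes, MYB11, MYB12 and MYB111 were below the NS level of the rule, with WT NS means of 1.58, 0.696 and 1.96 FPKM.

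The 250 bases before the annotated start of each of these 11 phenylpropanoid and flavonol genes were searched on both strands. The motifs were the G-box CACGTG and the MYB recognition element ACCTANC, which was added after the members were known. The windows of 4 members that hold either motif are printed 5′ to 3′ on the strand of the gene, from the RefSeq annotation of TAIR10.1, because they show where the motifs lie in genes of the same pathway. Capitals mark the motifs on either strand.
4CL3 (chr1:24171636-24171885, minus strand): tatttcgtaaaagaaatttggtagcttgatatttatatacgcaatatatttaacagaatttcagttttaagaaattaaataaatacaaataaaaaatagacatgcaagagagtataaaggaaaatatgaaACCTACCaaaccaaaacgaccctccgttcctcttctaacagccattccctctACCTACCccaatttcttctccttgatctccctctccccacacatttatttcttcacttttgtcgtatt
CHIL (chr5:1563036-1563285, plus strand): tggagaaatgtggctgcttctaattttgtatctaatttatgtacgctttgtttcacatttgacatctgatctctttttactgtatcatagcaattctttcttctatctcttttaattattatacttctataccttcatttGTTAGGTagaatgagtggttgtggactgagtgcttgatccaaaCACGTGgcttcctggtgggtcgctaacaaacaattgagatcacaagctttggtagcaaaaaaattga
F3H (chr3:19024942-19025191, plus strand): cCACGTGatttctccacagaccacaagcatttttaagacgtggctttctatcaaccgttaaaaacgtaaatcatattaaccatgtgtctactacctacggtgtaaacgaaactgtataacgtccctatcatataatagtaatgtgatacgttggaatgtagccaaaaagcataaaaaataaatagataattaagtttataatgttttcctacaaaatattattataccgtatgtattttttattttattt
AT1G06000 (chr1:1821895-1822144, minus strand): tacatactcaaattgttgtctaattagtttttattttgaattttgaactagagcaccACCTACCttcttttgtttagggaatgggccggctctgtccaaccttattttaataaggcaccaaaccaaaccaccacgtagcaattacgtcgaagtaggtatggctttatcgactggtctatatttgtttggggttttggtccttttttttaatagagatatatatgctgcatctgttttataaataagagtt

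The MYB recognition element was found in 3 of these 11 windows and the G-box in 2, and CHIL held both. Over all 115 protein-coding members the MYB recognition element was found in 8.696% of windows, against 5.204% of windows of genes at the NS level and 5.566% of all 27561 windows searched. For the G-box these shares were 6.957%, 7.487% and 6.462%. The heat shock element core GAANNTTC was in 8.696% of the members' windows and 9.042% of those at the NS level. This core is only a part of the element of inverted nGAAn repeats that heat shock factors bind. The TATA box TATAAA was in 56.52% of members' windows and 45.2% of those at the NS level, the widest gap among the 12 motifs of the first list, and the site II motif TGGGCC in 8.696% and 18.88%. These matches are letters in a window and no measure of binding.

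**Figure D3:**
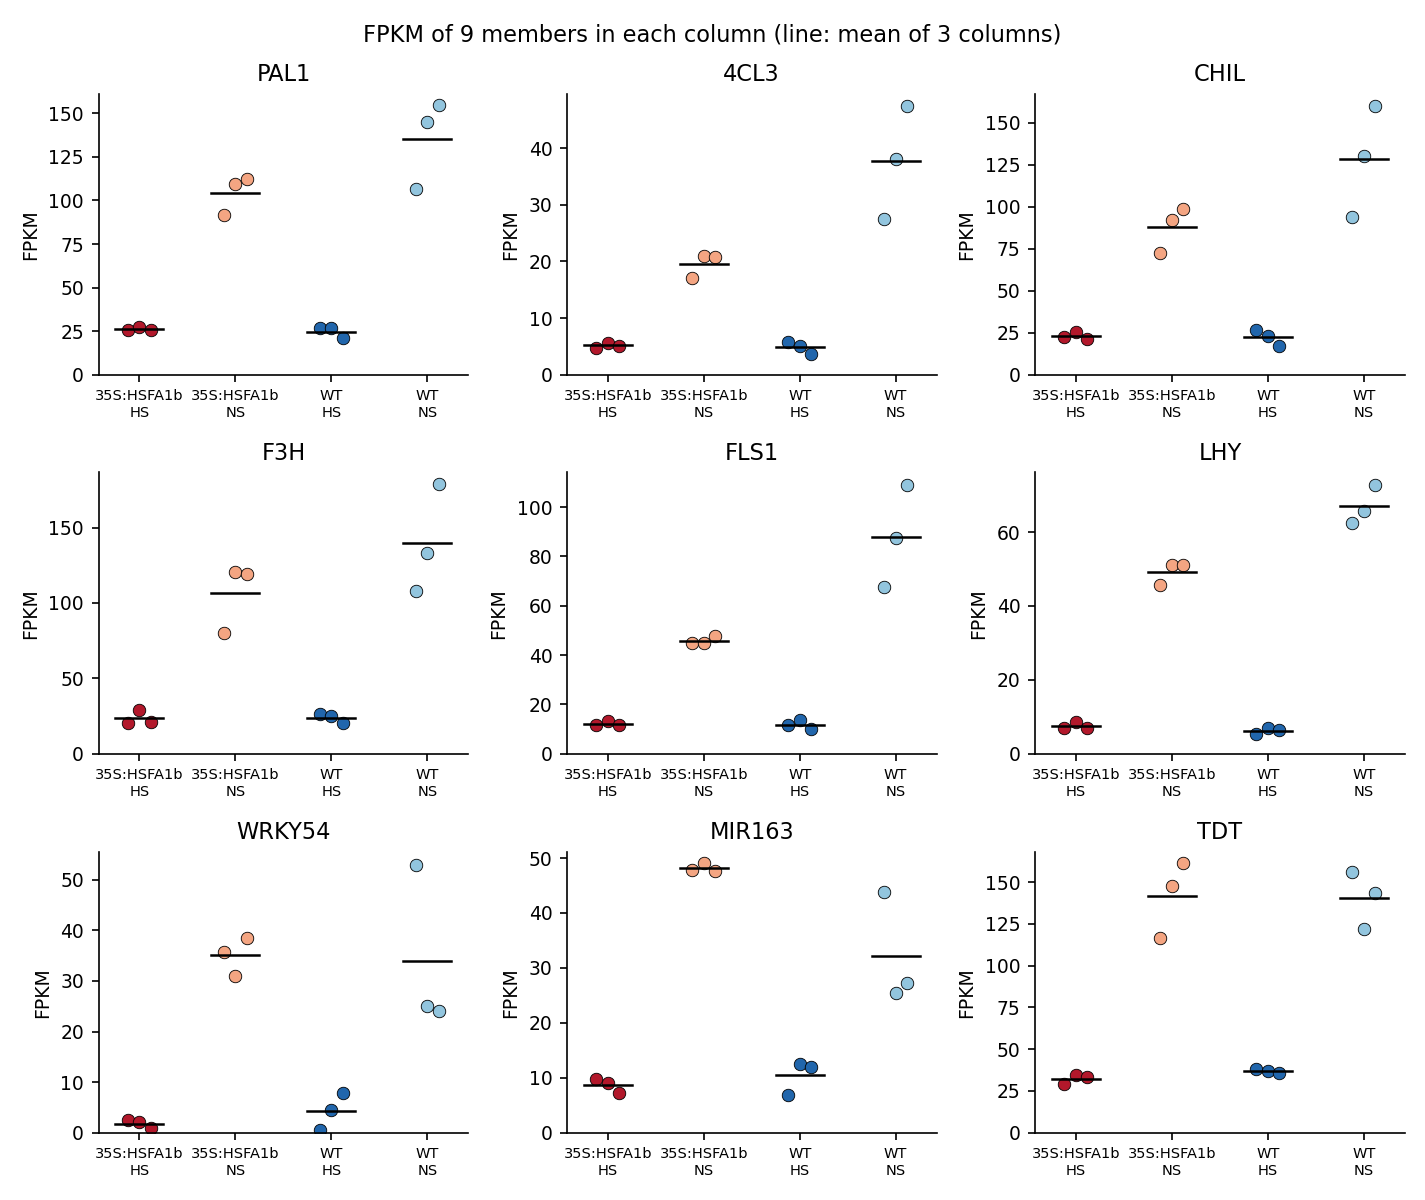
FPKM (vertical axis, linear from 0) of 9 members in each of the 12 columns, with the groups in the order 35S:HSFA1b HS, 35S:HSFA1b NS, WT HS and WT NS and a line at the mean of 3 columns. Every HS point is below every NS point of its genotype, as the rule requires; FLS1 and 4CL3 are lower under NS in 35S:HSFA1b than in WT, with FLS1 at 44.7 to 47.8 FPKM against 67.7 to 109 FPKM.

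Other metabolic genes formed smaller groups, in lists drawn up after the members were known, so their shares describe the lists only. In glucosinolate synthesis, which makes sulphur-rich defence compounds, 3 of 17 genes were members (17.65%), beside 0.961% of all genes at the NS level. These members were the C-S lyase SUR1, the sulfotransferase SOT17 and AKN2, an APS kinase that makes the sulphate donor. AKN2 was at 49.8, 25.5 and 35.7 FPKM in 35S:HSFA1b HS, against 113, 163 and 160 FPKM in 35S:HSFA1b NS columns. In WT it was at 77.5, 51.5 and 53.1 FPKM under HS, against 175, 158 and 184 FPKM under NS. Across the 17 genes the median log2 difference was -1.34 in 35S:HSFA1b and -0.88 in WT, and the early chain-elongation genes differed little, with 0.05 in 35S:HSFA1b and 0.13 in WT for BCAT4. MTO3 was the only member of 4 S-adenosylmethionine synthetases, the enzymes that supply the cell's methyl donor. Of the others, MAT3 kept 45.4% of its NS mean in 35S:HSFA1b and 31.9% in WT, where it met the rule. SAM1 kept 77.9% and 101%. SAM-2 kept 117% and 134%, with HS and NS columns that overlapped in 35S:HSFA1b and did not in WT.

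Of 10 genes of cuticular wax and very-long-chain lipids at the NS level, 5 were members (50%), beside 0.961% of all genes at that level. This list too was drawn up after the members were known, so its share supports nothing. The members were the elongase genes KCS9 and KCS19, CER2, which supports elongation of the longest chains, and the surface lipid-transfer protein LTPG2. AT5G61590, which RefSeq lists as DEWAX, a repressor of wax synthesis, was also a member. LTPG2 was the most abundant, at 32.0, 25.9 and 32.2 FPKM in 35S:HSFA1b HS, against 81.9, 89.8 and 107 FPKM in 35S:HSFA1b NS columns. The WT columns were at 48.0, 39.2 and 29.4 FPKM under HS, against 99.1, 116 and 110 FPKM under NS. The rule required each of these members to be lower under HS, so nothing is read from their shared direction. The other genes of the list at that level, KCS1, CER1, LTPG1, KCS6 and CER3, kept 21.6%, 67.5%, 66.9%, 50.8% and 38.8% in 35S:HSFA1b. In WT they kept 63.8%, 52.7%, 53.6%, 80.4% and 45.4%. For this list the median log2 difference was -1.50 in 35S:HSFA1b and -1.25 in WT over all 10 genes.

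Cell wall genes were spread over several families. The members held the cellulose synthase CESA5, 1 of 5 primary-wall synthases, and both cellulose synthase-like genes CSLB03 and CSLB04. The arabinogalactan proteins AGP17 and AGP18 and the fasciclin-like FLA2 were 3 of 31 such genes at the NS level. XTH6 and XTH9, which cut and rejoin xyloglucan, were 2 of 12. Over the 31 genes the median log2 difference was -0.64 in 35S:HSFA1b and -0.54 in WT, and over the 12 it was -1.06 in both. Not every gene was lower: AGP12 kept 86.3% of its NS mean in 35S:HSFA1b and 232% in WT, and XTH8 110% and 32.5%. XTH6 was at 38.8, 47.4 and 40.6 FPKM in 35S:HSFA1b HS and 164, 130 and 174 FPKM in 35S:HSFA1b NS columns. For WT the values were 38, 28 and 12.3 FPKM under HS and 135, 159 and 160 FPKM under NS. CSLB03 and CSLB04 are the only pair of neighbouring genes among the members, 970 bp apart on the plus strand of chromosome 2. They kept 23.6% and 30.5% of the NS mean in 35S:HSFA1b and 23.2% each in WT. Taken as annotation lists, the xyloglucan, expansin and pectin genes had 5 members of 109 at the NS level (4.587%). These 5 include EXL5, an EXORDIUM-like protein, so the list is wider than its name. The arabinogalactan, extensin and cellulose genes had 6 of 173 (3.468%). Over all genes at that level the share was 0.961%, and no difference from it was tested.

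Of 413 transporter genes at the NS level, 11 were members (2.663%), beside 0.961% of all genes at that level. TDT, which moves malate into the vacuole, was the most abundant, at 29.0, 34.5 and 33.3 FPKM in 35S:HSFA1b HS and 116, 148 and 162 FPKM in 35S:HSFA1b NS columns. WT plants had 38.2, 37.0 and 35.6 FPKM under HS and 156, 122 and 143 FPKM under NS. The sucrose-proton symporter SUC1 kept 20.8% of its NS mean in 35S:HSFA1b and 24.6% in WT. The cyclic nucleotide-gated channels CNGC4, CNGC12 and DND1, calcium-permeable channels of the plasma membrane that act in immunity, were 3 of 10 family members at the NS level (30%). This family was picked after the members were known, so its share supports nothing. CNGC12 had nearly the same level in both genotypes, with 11.8, 12.2 and 11.7 FPKM in 35S:HSFA1b HS, against 37.5, 33.4 and 33.6 FPKM in 35S:HSFA1b NS columns. In WT it was at 13.6, 12.5 and 13.2 FPKM under HS, against 41.0, 36.9 and 38.6 FPKM under NS. CNGC12 shares 1397 bp at 97.065% identity with CNGC11, so reads of these genes may not be separable.

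Among regulators, LHY had the largest margin of all members when the lesser of the genotypes is taken, with a lowest NS column 5.369 times the highest HS column in 35S:HSFA1b and 9.089 times in WT. LHY encodes a morning-expressed factor of the circadian clock. It was at 6.98, 8.51 and 7.01 FPKM in 35S:HSFA1b HS, against 45.7, 51.0 and 51.1 FPKM in 35S:HSFA1b NS columns. The WT columns were at 5.22, 6.86 and 6.52 FPKM under HS, against 62.3, 65.7 and 72.7 FPKM under NS. WRKY54, a WRKY factor of salicylic acid signalling, kept the smallest percentage of the members in 35S:HSFA1b, and its WT columns were widely spread. It was at 2.42, 2.17 and 0.891 FPKM in 35S:HSFA1b HS and 35.8, 30.9 and 38.5 FPKM in 35S:HSFA1b NS columns. For WT the values were 0.612, 4.51 and 7.87 FPKM under HS and 52.9, 25 and 24.1 FPKM under NS. MYB48, a MYB domain factor, kept 10.5% of its NS mean in 35S:HSFA1b and 21% in WT. RUP2, a repressor of the ultraviolet-B photoreceptor UVR8, kept 19.1% and 28.1%.

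By family, 5 of 34 AP2/ERF factors at the NS level were members (14.71%), beside 0.961% of all genes at that level. The patterns of 5 annotation lists, including that for ethylene-responsive factors, were corrected after values were seen. The AP2/ERF share therefore describes the list only. The WRKY (1 of 20, 5%), MYB (2 of 65, 3.077%), bHLH (3 of 58, 5.172%) and NAC (1 of 34, 2.941%) factors had few members, so little can be read from their shares. No difference between the families, AP2/ERF among them, or from 0.961% was tested. The AP2/ERF members were RAP2.7, a repressor of flowering, AT5G07580, AT5G61590, AT1G01250 and AT4G32800. None of 96 photosynthesis and chlorophyll genes, 26 SAUR genes, 67 Aux/IAA, GH3 and auxin transport genes, 20 jasmonate genes or 83 NLR and disease resistance genes was a member, but at a share of 0.961% lists of this size would hold few or none, so nothing is read from these counts. Of signalling genes, the kinase CIPK15, which works with calcineurin B-like calcium sensors, and the leucine-rich repeat kinases AT1G51805 and AT4G26540 were members. Other members with high margins have little annotation: AT3G14395 is an uncharacterized protein, AT4G34550 an F-box protein, AT5G20110 a dynein light chain type protein and AT2G39710 an aspartyl protease. The 2 annotated non-coding RNAs, AT2G18735 and AT4G14548, stood near the limit of 5 FPKM, with NS means of 5.12 and 5.45 FPKM in 35S:HSFA1b and 5.57 and 5.50 FPKM in WT.

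Among the remaining abundant members, LEA3, a late embryogenesis abundant family protein, was at 49.5, 92.6 and 92.5 FPKM in 35S:HSFA1b HS and 248, 243 and 281 FPKM in 35S:HSFA1b NS columns. WT plants had 150, 115 and 108 FPKM under HS and 323, 365 and 426 FPKM under NS, so that 35S:HSFA1b was lower without overlap under both conditions. UGT72B3, a UDP-glucosyltransferase, kept 12.57% of its NS mean in 35S:HSFA1b and 21.95% in WT. SMT2, a sterol methyltransferase that sets the balance of plant sterols, kept 33.53% and 39.66%. Among small secreted or membrane proteins, PSK3, a precursor of the growth peptide phytosulfokine, kept 23.65% and 29.32%, GDU4, which promotes amino acid export, 16.83% and 29.28%, and EXL5, an EXORDIUM-like protein, 19.01% and 24.28%. ICK1, an inhibitor of cyclin-dependent kinases, kept 26.15% and 37.23%. The bHLH factors UNE10, FBH3 and AT2G42300 kept 19.04%, 28.63% and 40.82% in 35S:HSFA1b and 23.39%, 39.14% and 34.83% in WT. The zinc finger factors IDD4 and AT4G17810 kept 24.35% and 29.95% in 35S:HSFA1b and 22.72% and 24.42% in WT, and the amino acid transporter family gene UMAMIT12 27.32% and 26.66%. The pectin lyase-like gene AT5G49215 kept 31.56% in 35S:HSFA1b and 18.09% in WT. Members outside every annotation list ranged over sucrose synthesis (ATSPS4F, 37.11% and 26.55%), a cysteine proteinase (AT2G27420, 19.73% and 17.52%) and uncharacterized proteins such as AT5G19190 (13.24% and 27.62%). Of the 119 members, 56 were in at least 1 of the 23 annotation lists.

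The gene models of the members differed from those of the other genes at the NS level in a property that the rule did not use. For each gene the annotated transcript with the longest coding sequence was used. Of 115 protein-coding members 31 (26.96%) had a single exon in it, against 11.18% of 12222 protein-coding genes at the NS level. Genes with 10 or more exons were 4.348% of members and 22.79% of the genes at the NS level, and the median number of exons was 3 against 5. Transcript length was nearly the same, with a median of 1672 bp in the members and 1694 bp at the NS level. These are descriptions over genes of the same columns.

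**Figure D4:**
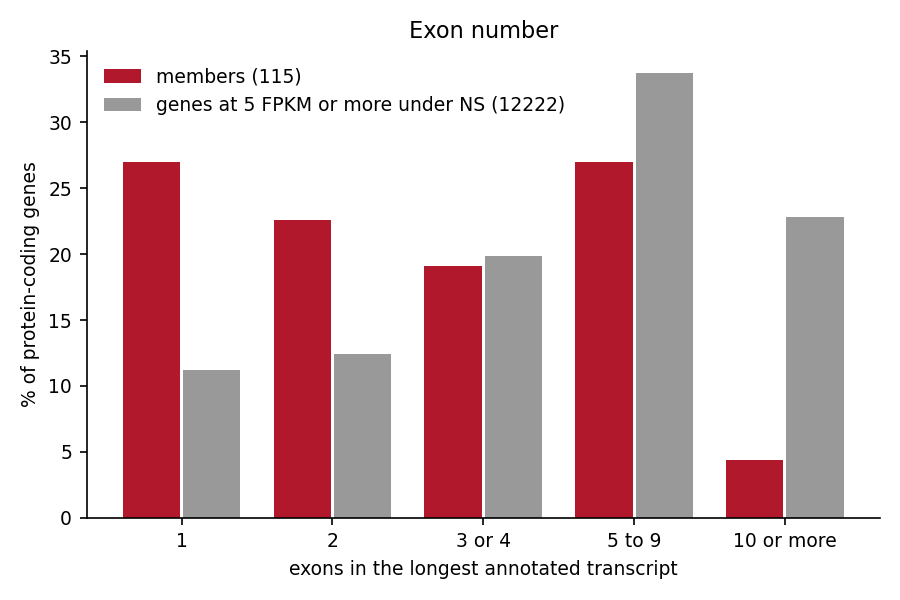
Percentage of protein-coding genes (vertical axis) by number of exons in the annotated transcript with the longest coding sequence (horizontal axis). In each pair the 115 members are on the left and the 12222 genes at the NS level on the right. Single-exon genes make up 26.96% of members against 11.18%, and genes with 10 or more exons 4.348% against 22.79%.

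The difference between genotypes was not used by the rule, although the same columns were, and was tested with limma over 17720 genes with Benjamini-Hochberg adjustment. Under NS, 29 of the 119 members (24.37%) were lower in 35S:HSFA1b than in WT at an adjusted p of at most 0.05, against 6.61% of all genes tested and 8.689% of the genes at the NS level. Among the 68 genes that met the rule in WT only the share was 33.82%, and among the 297 that met it in 35S:HSFA1b only it was 7.071%, so a high share was not particular to the members. No member was higher, against 8.19% of all genes, and 1 member was higher at an unadjusted p under 0.05. The count depended on single columns: 16, 10 and 16 members were called lower without column 0, 1 or 2 of 35S:HSFA1b NS, 12 and 8 without column 1 or 2 of WT NS, and 46 without column 2 of WT HS. Every 35S:HSFA1b NS column was below every WT NS column for 69 members (57.98%), against 23.3% of the genes at the NS level. The median log2 difference was -0.37 over the members and -0.03 over all genes at the NS level.

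CIPK15 had the smallest adjusted p, at 16.3, 13.6 and 16.6 FPKM in 35S:HSFA1b NS columns, against 28.9, 43.8 and 42.6 FPKM in WT NS columns. Its log2 difference was -1.29 (SE 0.16, limma adjusted p = 0.000357). MTO3 was at 264, 225 and 284 FPKM in 35S:HSFA1b NS and 459, 524 and 524 FPKM in WT NS columns, a log2 difference of -0.97 (SE 0.13, limma adjusted p = 0.000776). CESA5 was at 76.2, 73.6 and 79.1 FPKM in 35S:HSFA1b NS and 105, 129 and 133 FPKM in WT NS columns, a log2 difference of -0.67 (SE 0.10, limma adjusted p = 0.00112). FLS1 had a log2 difference of -0.91 (SE 0.16, limma adjusted p = 0.00407). In these genes no NS column of 35S:HSFA1b overlapped with the NS columns of WT, and each call held in all 21 alternative settings.

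Under HS, 42 members (35.29%) were lower in 35S:HSFA1b than in WT, against 16.8% of all genes tested and 19.44% of the genes at the NS level, and 0 were higher by limma, against 12.1% of all genes tested. The share lower was 75.76% among the genes that met the rule in 35S:HSFA1b only and 1.471% among those that met it in WT only. Both the HS and the NS columns entered the rule, so these shares and those under NS are not independent of it. At an unadjusted p under 0.05, 3 members were higher. Every 35S:HSFA1b HS column was below every WT HS column for 49 members (41.18%), against 27.3% of the genes at the NS level. AT1G11700, a DUF584 protein annotated as a senescence regulator, was at 2.09, 2.83 and 2.49 FPKM in 35S:HSFA1b HS columns, against 13.7, 11.4 and 8.76 FPKM in WT HS columns. Its log2 difference was -2.17 (SE 0.19, limma adjusted p = 2.26e-05). The ERF factor AT5G07580 was at 2.7, 2.44 and 2.13 FPKM in 35S:HSFA1b HS and 8.20, 10.9 and 9.82 FPKM in WT HS columns, a log2 difference of -1.99 (SE 0.19, limma adjusted p = 3.41e-05). RAP2.7 and the glutathione transferase GSTU27 differed by -0.93 (SE 0.10, limma adjusted p = 6.71e-05) and -0.91 (SE 0.09, limma adjusted p = 3.89e-05). Of the 11 phenylpropanoid and flavonol members, 2 were called lower in 35S:HSFA1b under NS (FLS1 and 4CL3) and 0 under HS by limma. Under HS, 2 were lower at an unadjusted p under 0.05, and the median log2 difference of the 11 was -0.04. The highest values of the genotype difference among all members were those of AT3G14395, 0.81 under NS (limma adjusted p = 0.493) and 1.67 under HS (limma adjusted p = 0.11), and neither passed the threshold.

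**Figure D5:**
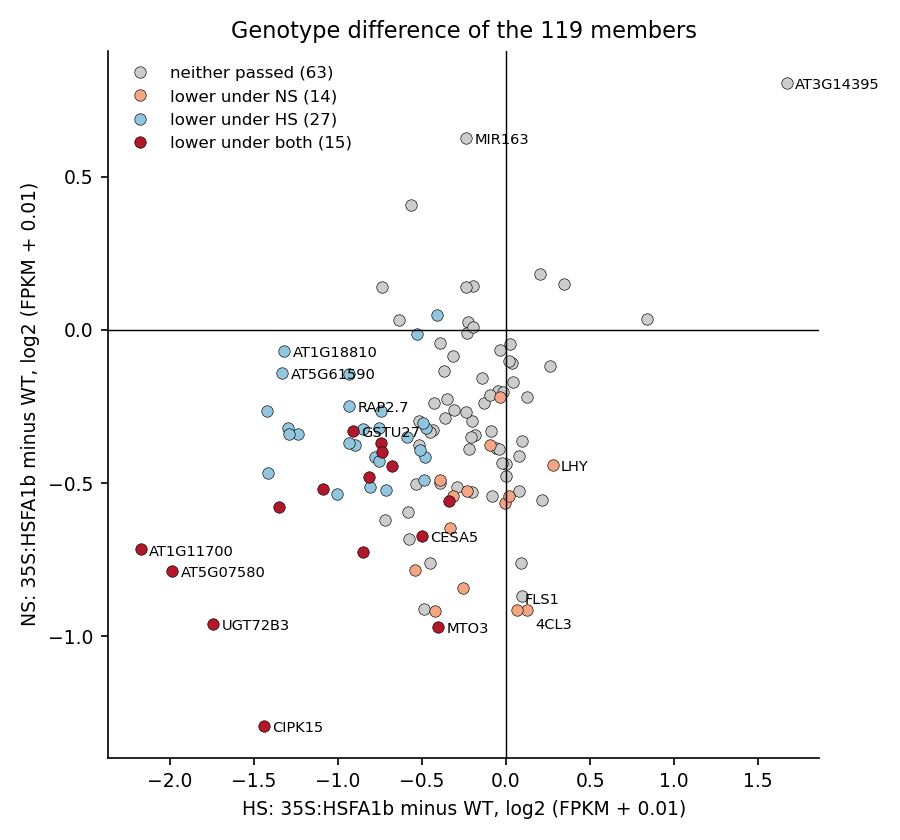
Difference of 35S:HSFA1b from WT on the log2(FPKM + 0.01) scale under NS (vertical axis) against HS (horizontal axis) for the 119 members, coloured by the limma call. 15 members were lower under both conditions, 14 only under NS, 27 only under HS and 63 under neither; AT1G11700 is farthest left at -2.17 and CIPK15 lowest at -1.29.

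Both comparisons of genotype stand beside a difference in the libraries. By the labels, 1 library of 35S:HSFA1b NS and all 6 WT libraries carry the same submission number, and the other 2 libraries of 35S:HSFA1b NS and all 3 of 35S:HSFA1b HS carry another. Under HS, genotype and submission therefore cannot be told apart. The antenna gene CAB1 was at 4095 to 5341 FPKM in 5 columns of 35S:HSFA1b, against 21188 to 30644 FPKM in column 2 of 35S:HSFA1b NS and the 6 WT columns. Between genotypes, genes of higher level in WT NS plants were lower in 35S:HSFA1b: the median log2 difference under NS was 0.07 for genes under 10 FPKM, -0.06 at 20 to 50 FPKM, -0.28 at 100 to 300 FPKM and -0.94 above 1000 FPKM. The members had medians of -0.30 under 10 FPKM, -0.36 at 20 to 50 FPKM and -0.39 at 100 to 300 FPKM, with none above 1000 FPKM. In column 2 of 35S:HSFA1b NS, the column with the CAB1 level of WT, 85 members (71.43%) were below the lowest WT NS column, beside 42.19% of the genes at the NS level. In columns 0 and 1 these were 93 members (78.15%, beside 36.19%) and 90 members (75.63%, beside 37.66%). The part of the library difference in the calls was not tested.

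The difference of the heat response between genotypes passed the threshold for 10 members. It was higher in 35S:HSFA1b, which is a smaller loss, for 3 members (2.521%, against 3.94% of all genes tested), and lower, a larger loss, for 7 (5.882%, against 7.97%). The rule fixed both heat responses below a limit, so these shares are not read against each other. By the labels, the submission number was mixed among the 35S:HSFA1b NS libraries and uniform within every other group. Submission therefore also enters the heat response of 35S:HSFA1b, and with it the rule in that genotype and this difference. Its part was not tested. FLS1 lost less in 35S:HSFA1b, with an interaction of 0.98 on the log2 scale (SE 0.23, limma adjusted p = 0.0212), as did LHY (0.72, SE 0.17, limma adjusted p = 0.022) and 4CL3 (1.04, SE 0.30, limma adjusted p = 0.045). All 3 were lower in 35S:HSFA1b under NS without overlap. Under HS the columns of FLS1 and 4CL3 overlapped between genotypes and those of LHY were slightly higher in 35S:HSFA1b. Larger losses in 35S:HSFA1b were those of AT1G11700 (-1.46), AT1G18810, a phytochrome kinase substrate-like gene (-1.25), RAP2.7 (-0.68), GSTU27 (-0.58), AT5G61590 (-1.19), AT5G07580 (-1.20) and the A20/AN1 zinc finger gene AT2G36320 (-0.95). AT1G18810 was at 3.45, 3.57 and 3.97 FPKM in 35S:HSFA1b HS and 24.4, 24.6 and 26.4 FPKM in 35S:HSFA1b NS columns. WT plants had 10.9, 10.7 and 6.56 FPKM under HS and 21.8, 27.2 and 30.9 FPKM under NS, so that the NS levels overlapped and the HS levels did not. Without 1 column at a time the count of members with a smaller loss in 35S:HSFA1b ran from 0 to 8: it was 0 without column 1 of 35S:HSFA1b HS, 1 each without column 1 of 35S:HSFA1b NS and columns 1 and 2 of WT NS, and 8 without column 0 of WT HS. The count with a larger loss ran from 6 to 11, with 11 without column 2 of WT HS.

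Some members cannot be fully separated from other genes. A match of at least 100 bp and 90% identity in the transcript of another gene was found for 9 members, among them ARAB-1, CNGC12 and PDX1L4. A gene on the opposite strand overlapped 23 members, including AT1G06000, F3H, MTO3 and CER2, and whether fragments were assigned by strand is not given in the sources used here. Of the printed genes, F3H shares 1588 bp with AT3G51238 and AT1G06000 shares 1580 bp with AT1G06002, both non-coding genes on the opposite strand.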

How the data were processed

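Leaf RNA-seq libraries were processed by the authors, who mapped reads to the Arabidopsis transcriptome with GSNAP, ran Cufflinks and Cuffdiff on TAIR10 with geometric library normalization, and deposited 1 table of FPKM per locus in 12 columns (versions are not given in the sources used here). It holds no counts, so depth is unknown and only the spread between columns measures precision. Columns were tied to groups by name and not to single libraries. The study's methods describe 3 biological replicates each for 35S:HSFA1b NS, WT HS and WT NS. For 35S:HSFA1b HS the sources used here do not say so, and the spread of that group may be technical.

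Genotype differences were fitted with limma 3.58.1 in R 4.3.3 on log2(FPKM + 0.01), with an intensity trend and all 12 columns, keeping genes whose mean reached 1 FPKM. The fit was tested on simulated data. Members and lists were chosen with earlier results of these data known. Pathway lists and the MYB motif were added, and 5 annotation lists were corrected, after values were seen. Named genes were those with the widest gap between NS and HS columns, the highest NS level, the widest gap in each list of at least 3 members, the smallest adjusted p of each contrast, the edges of the rule and the non-coding members; other genes named were chosen after their values were seen. Sequences and exons come from RefSeq (TAIR10.1) with Python 3.11.15 and BLAST 2.17.0. Alternatives covered the rule, pseudocount, filter, scaling, trend, block and each column left out. The heat differences within a genotype were not tested.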

Additional observations from a re-analysis of the deposited data

Results flagged for a closer look

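The heat response differed between genotypes, by the limma interaction term over all genes tested, for 10 members. Submission also enters the heat response of 35S:HSFA1b, and its part in these differences was not tested. The log2 difference of 35S:HSFA1b from WT in response was 0.72 for LHY, 1.04 for 4CL3 and 0.98 for FLS1, which were reduced less in 35S:HSFA1b. It was -1.46 for AT1G11700, -1.25 for AT1G18810, -0.68 for RAP2.7, -0.95 for AT2G36320, -0.58 for GSTU27, -1.20 for AT5G07580 and -1.19 for AT5G61590, which were reduced more. Under the alternative settings, AT1G11700, AT1G18810, RAP2.7 and GSTU27 passed in all 20, with limma adjusted p from 0.000519 to 0.0461, whereas 4CL3 passed in 7, FLS1 in 17 and LHY in 18. AT2G36320, AT5G07580 and AT5G61590 were not followed gene by gene under these settings.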

How the results depend on the processing

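The number of members was 405 with a fold limit of 1.5, 16 with a limit of 3 and 347 with group means in place of the extreme columns, and 122 to 158 with a column left out. The median log2 heat differences of the members moved by less than the spread between columns under median scaling and quantile normalization, which were chosen after seeing the data. The counts of members lower in 35S:HSFA1b were 8 to 46 under NS and 34 to 61 under HS with a column left out, and 18 under NS with the replicate block by column digit. The digits do not pair the samples: correlations of deviations ran from -0.53 to 0.22. Members higher under NS were 2 with only the groups compared, 1 with quantile normalization and 0 to 1 with a column left out, and under HS 0 to 2. Counts in the difference of response were 0 to 8 for smaller and 6 to 11 for larger losses with a column left out. The table has no counts or depths, so depth is unknown and low values have no interval. Genotype under HS and submission cannot be told apart, and columns could not be tied to single libraries.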
